A study of Mus musculus with 72 samples.

Results

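Nup210l and the transmembrane nucleoporins Nup210, Pom121 and Ndc1 were followed in Nup133+/+ and Nup133-mutant mouse embryonic stem cells as these left pluripotency. Nup210l was selected on measured values, its higher CPM and log2 fold change in the mutant lines at days 2 and 3 in earlier results of these data, and the other 3 genes were added because they encode the membrane-spanning proteins of the pore. They are 4 of the 45321 genes with a matched identifier. All 4 were among the 18273 genes that passed the filter on low counts. Each gene was read from its Ensembl transcript with the highest total count.

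Nuclear pores are built from copies of a small set of proteins called nucleoporins, and a few of these span the nuclear membrane and hold the pore in it. Nup210 (gp210) has a large domain in the lumen of the nuclear envelope, Pom121 carries phenylalanine-glycine repeats and takes part in pore assembly in interphase, and Ndc1 crosses the membrane several times and binds Nup35 and Aaas. Nup210l is a paralog of Nup210 known chiefly from the testis, and Nup133 belongs to the Y-complex, the scaffold on both faces of the pore.

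The messenger RNA came from 18 biological samples, 3 in each of 6 groups of genotype and day. The controls, Nup133+/+, were HM1 (XY, 40 chromosomes), sampled as 2 biological replicates, and 1A4, derived from a blastocyst (Sox1gfp/+, XY, 40 chromosomes). The knockout group held lines 14 and 19, Nup133-/- derivatives of HM1 made with CRISPR/Cas9 (XY, 40 chromosomes, given as likely for line 19), and the blastocyst-derived line 319. Line 319 is Nup133merm/merm and Sox1gfp/+, with 42 chromosomes, XX and additional copies of chromosomes 8 and 12. Day 0 cells had grown in serum and LIF on mitomycin-C-treated feeders, which were removed by brief plating. Day 2 cells had grown in N2B27 medium on gelatin, and day 3 cells had then had retinoic acid for a day. The design asks which genes respond to loss of Nup133 during this neuroectodermal course.

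Levels are given in CPM, counts per 1000000 with TMM scaling, and differences as log2 fold changes ± standard error. Calls are adjusted p-values below 0.05 from edgeR's quasi-likelihood test with Benjamini-Hochberg adjustment over all 18273 genes. These p-values measure the spread between these samples, and the labels do not say whether the HM1 replicates are separate cultures. In bulk RNA, fewer cells that express a gene and less RNA per cell cannot be told apart.

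Gene counts per sample ranged from 16.5 M to 54.4 M, and the lowest was line 19 at day 2. Nup133 (chromosome 8) stood at 180 to 323 CPM in the control samples and at 14.3 to 37.1 CPM in the knockout samples, so no sample went against its label. Its log2 fold changes were -3.19 ± 0.26, -3.28 ± 0.26 and -3.40 ± 0.27 at days 0, 2 and 3 (adjusted p 2.1e-05, 3.2e-05 and 2e-05). The summed CPM of 6 pluripotency markers was 3657 to 5415 over all day 0 samples and 121 to 466 over all day 3 samples. That of 6 neural progenitor markers went from 44.7 to 159 at day 0 to 237 to 894 at day 3.

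The genomic positions are those of GRCm38. Nup210l (ENSMUSG00000027939, read from ENSMUST00000200410) lies on chromosome 3, 90104134 to 90212048 on the + strand, with 40 exons and a spliced length of 5710 bases. Nup210 (ENSMUST00000032179) lies on chromosome 6, 91013068 to 91116829 on the - strand, also with 40 exons, and is 7037 bases long. Pom121 (ENSMUST00000111171) lies on chromosome 5, 135376141 to 135394546 on the - strand, with 13 exons in 5580 bases. Ndc1 (ENSMUST00000139560) lies on chromosome 4, 107367784 to 107416346 on the + strand, with 18 exons in 4584 bases. None of the 4 is on a chromosome whose copy number the labels give as different between lines. The last exon of Pom121 overlaps an exon of Nsun5 on the other strand, and since the use of strand in the counting is not given in the sources used here, its level is uncertain by that much.

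Because Nup210l and Nup210 are paralogs, their sequences are shown to tell whether reads could be shared between them. The coding parts, 5643 and 5658 bases, were 59.2% identical over 5475 aligned bases. The longest run of bases that both spliced transcripts hold was 15, and 0 of the 5686 words of 25 bases in Nup210l occur in Nup210. The most alike stretch of 90 coding bases within an exon lies in exon 27 of both genes (coding bases 3575 to 3664). It is printed from the GENCODE M21 transcripts 5′ to 3′ on the gene's own strand, at chr3:90182502-90182591 (+) for Nup210l and chr6:91036373-91036462 (-) for Nup210. Capitals mark the 25 bases that differ, and 65 are identical.
Nup210l: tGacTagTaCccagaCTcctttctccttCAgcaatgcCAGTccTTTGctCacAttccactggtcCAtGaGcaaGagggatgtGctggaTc
Nup210: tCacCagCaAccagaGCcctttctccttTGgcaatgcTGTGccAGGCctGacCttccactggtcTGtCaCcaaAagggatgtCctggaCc
Even here the differing bases are spread so that no run of 25 bases is common to both genes.

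The files hold 2 transcripts of Nup210l, ENSMUST00000200410 and ENSMUST00000029548, and both have 40 exons. The start and end are the same for 34 exons and differ for 6, namely exons 1, 20, 21, 30, 31 and 40. The second transcript starts 2 bases earlier, the first ends 31 bases later, and at 2 splice junctions the boundary is shifted by 4 bases. These junctions are the places within the shared length where the 2 sequences differ, at 6 of 5679 compared bases. They are shown 5′ to 3′ on the + strand of chromosome 3, with the 4 shifted bases in capitals and 26 bases on each side. The junction of exons 20 and 21 joins base 90170664 to 90172053 in ENSMUST00000200410 and base 90170660 to 90172049 in ENSMUST00000029548.
ENSMUST00000200410, exons 20 and 21: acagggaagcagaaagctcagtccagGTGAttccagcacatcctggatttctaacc
ENSMUST00000029548, exons 20 and 21: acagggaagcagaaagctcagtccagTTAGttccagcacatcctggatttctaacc
The junction of exons 30 and 31 joins base 90189599 to 90190857 in the first and base 90189595 to 90190853 in the second.
ENSMUST00000200410, exons 30 and 31: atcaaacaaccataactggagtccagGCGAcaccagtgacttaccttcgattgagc
ENSMUST00000029548, exons 30 and 31: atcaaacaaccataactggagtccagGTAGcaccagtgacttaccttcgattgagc
At each junction both ends of the intron are shifted by 4 bases, so the intron keeps its length, and 3 of the 4 capital bases differ.

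The counts did not tell the 2 Nup210l transcripts apart. They were equal in 12 of 18 samples, the largest difference in a sample was 4 counts, and the totals over all samples were 2000 and 1989. The log2 differences of mean CPM between knockout and control, with 0.5 added, were 0.38, 1.95 and 2.87 at days 0, 2 and 3 for ENSMUST00000200410. They were 0.38, 1.93 and 2.88 for ENSMUST00000029548. The 2 transcripts share nearly all their exons, so these are not independent values. Exons of no other gene overlap those of Nup210l; Gm23723, Gm43712 and Gm24185 lie within its introns.

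Nup210l was the gene for which the group was drawn up, so its genotype difference is given as a description without a test. At day 0 its level was 0.962, 1.44 and 1.28 CPM in HM1 replicate 1, HM1 replicate 2 and line 1A4 (37, 60 and 32 counts), and 1.30, 1.37 and 2.59 CPM in lines 14, 19 and 319 (38, 59 and 127 counts). Lines 14 and 19 lay inside the control range and line 319 above it. The means were 1.23 ± 0.244 CPM (SD, n = 3) in controls and 1.75 ± 0.724 CPM (SD, n = 3) in knockout samples, with a log2 fold change of 0.51 ± 0.30.

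At day 2 the genotypes no longer overlapped. The controls stood at 0.831, 0.884 and 0.667 CPM (37, 38 and 33 counts) and lines 14, 19 and 319 at 3.90, 5.35 and 4.28 CPM (205, 71 and 99 counts). The lowest knockout sample was 4.41 times the highest control. The group means were 0.794 ± 0.113 and 4.51 ± 0.755 CPM (SD, n = 3 each), a log2 fold change of 2.50 ± 0.31, which was 2.34 without line 19 at day 2.

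At day 3, after retinoic acid, the gap was wider in each knockout line. The controls stood at 0.700, 0.568 and 0.807 CPM (26, 17 and 31 counts) and lines 14, 19 and 319 at 9.79, 8.24 and 6.68 CPM (592, 240 and 258 counts). The lowest knockout sample was 8.27 times the highest control, and the ratio of the means was 11.9. The log2 fold change was 3.58 ± 0.32, between 0.692 ± 0.12 and 8.23 ± 1.55 CPM (SD, n = 3 each).

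**Figure D1:**
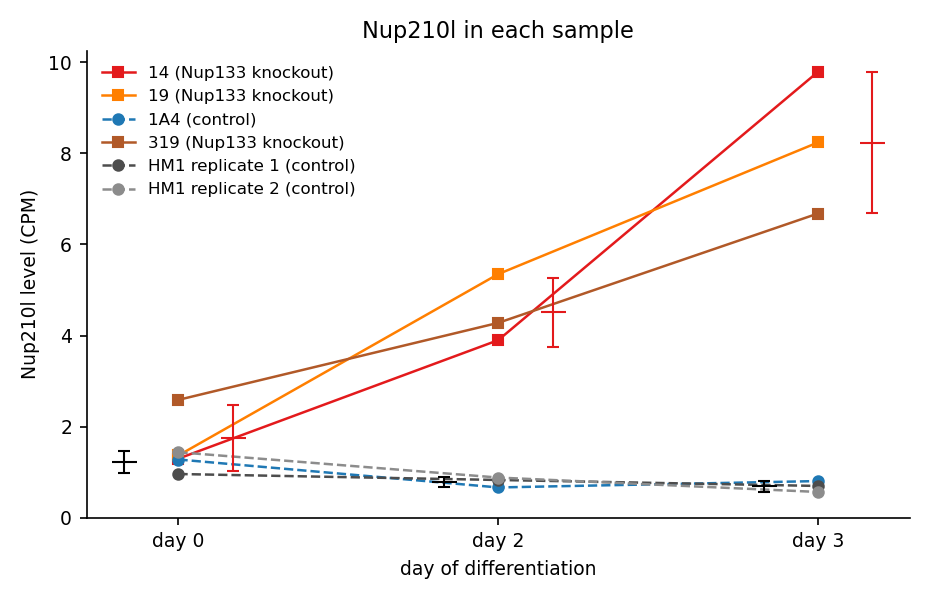
Nup210l level in CPM (linear axis) in each of the 18 samples at days 0, 2 and 3, with a line for each control replicate (dashed, circles) and knockout line (solid, squares); the bars beside the points give the group mean and SD (n = 3). The control samples stay between 0.568 and 1.44 CPM over the 3 days, and the 3 knockout lines reach 6.68 to 9.79 CPM at day 3.

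Each mutant line was also set against the controls of its own background, lines 14 and 19 against the mean of the HM1 replicates and line 319 against line 1A4, as differences of log2(CPM + 0.5). At day 0 these were 0.10, 0.15 and 0.80 for lines 14, 19 and 319. They were 1.70, 2.11 and 2.03 at day 2 and 3.18, 2.95 and 2.46 at day 3. Line 319 was thus the highest of the 3 at day 0 and the lowest at day 3, with 1 sample of each line per day.

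From day 0 to day 2 the genotypes moved in opposite directions. On the same scale, Nup210l changed by -0.13, -0.49 and -0.61 from day 0 to day 2 in HM1 replicate 1, HM1 replicate 2 and line 1A4, and by 1.29, 1.65 and 0.63 in lines 14, 19 and 319. From day 2 to day 3 the controls changed by -0.15, -0.37 and 0.16 and the knockout lines by 1.23, 0.58 and 0.59. The rise in lines 14 and 319 was thus spread over both steps, and that in line 19 fell mostly before day 2. The split in line 19 rests on 1 day 2 sample, the shallowest of all, with 71 counts of Nup210l. The fitted log2 change from day 0 to day 3 was 2.24 ± 0.30 in the knockout lines and 2.76 in the HM1-derived lines alone.

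The choice of Nup210l used the control levels of days 2 and 3, so its course in the controls is likewise a description. The fitted log2 change in the controls was -0.63 ± 0.31 from day 0 to day 2, -0.20 ± 0.32 from day 2 to day 3 and -0.83 ± 0.32 from day 0 to day 3, and the last was negative in 3 of 3 control series. It was -0.56 without HM1 replicate 2. With 17 to 60 counts of Nup210l per control sample, such steps are poorly measured.

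Per length, Nup210l stayed far below the other transmembrane nucleoporins in both genotypes. Its mean level per kb of transcript was 0.215, 0.139 and 0.121 CPM per kb in controls at days 0, 2 and 3 and 0.307, 0.79 and 1.44 CPM per kb in knockout samples. At day 3 the controls held 21.3 CPM per kb of Nup210, 28.0 of Pom121 and 16.6 of Ndc1, and the knockout samples 20.1 of Nup210 and 33.5 of Pom121. Ndc1 was at 24.7, 22.9 and 21 CPM per kb in the knockout samples at days 0, 2 and 3.

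The share of Nup210l in the per-length signal of Nup210l plus Nup210 puts the paralogs on 1 scale. It was 1.41 ± 0.304%, 0.858 ± 0.169% and 0.566 ± 0.0679% in controls at days 0, 2 and 3 (SD, n = 3). In the knockout samples it was 1.83 ± 0.553%, 5.94 ± 2.77% and 6.64 ± 0.721%. The large spread at day 2 came with 1 sample, line 19, at 9.13%, where the range of the group began at 4.15%. That sample also had the lowest Nup210 level of all 18. At day 3 the 3 lines lay between 5.84% and 7.22%, and Nup210 transcripts still made up most of the pair.

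Nup210, the broadly expressed member of the pair, was not called between the genotypes at any day. Its day 0 level was 110, 114 and 94.3 CPM in HM1 replicate 1, HM1 replicate 2 and line 1A4 and 107, 108 and 126 CPM in lines 14, 19 and 319. Its day 2 level was 111, 108 and 122 CPM in the controls and 111, 65.7 and 111 CPM in the knockout lines, and its day 3 level 138, 142 and 168 against 155, 137 and 133 CPM. The ranges overlapped at each day, and line 19 at day 2 stood alone at the bottom. The log2 fold changes were 0.09 ± 0.17 (95% interval -0.28 to 0.45, adjusted p 0.96), -0.25 ± 0.17 (-0.62 to 0.12, adjusted p 0.43) and -0.07 (-0.44 to 0.29, adjusted p 0.86) at days 0, 2 and 3. Without line 19 at day 2 the middle value was -0.05 (adjusted p 0.88).

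Of all genes, 0.854%, 1.6% and 5.19% were called between the genotypes at days 0, 2 and 3. None of Nup210, Pom121 and Ndc1 was called by edgeR at any of these days. At an unadjusted p below 0.05 the count was also 0 of 3 at each day, and DESeq2 called 0.

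Over the days Nup210 rose in the controls by 0.49 ± 0.17 from day 0 to day 3 (interval 0.12 to 0.85, adjusted p 0.028), in 3 of 3 series, and 51.0% of all genes were called in that comparison. This call was lost without HM1 replicate 1 (0.56, adjusted p 0.097), HM1 replicate 2 (0.57, 0.086) or line 1A4 (0.32, 0.27). In the knockout lines it rose from day 2 to day 3 by 0.57 ± 0.17 (adjusted p 0.02), a comparison in which 33.6% of all genes were called. Without line 19 at day 2 that step was 0.35 (adjusted p 0.034). The call was lost without line 19 altogether (0.37, adjusted p 0.061), HM1 replicate 1 (adjusted p 0.056) or HM1 replicate 2 (adjusted p 0.053). The knockout change over all 3 days was 0.33 (adjusted p 0.13), and without line 19 at day 2 it was 0.32 and called (adjusted p 0.015).

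Pom121, the FG-repeat protein, stood at 146, 143 and 140 CPM in the day 0 controls and 145, 143 and 123 CPM in lines 14, 19 and 319. At day 2 it was 163, 162 and 170 CPM against 191, 128 and 139 CPM, and at day 3 160, 155 and 154 against 217, 185 and 158 CPM. Lines 14 and 19 were above all controls at day 3, and line 319 was within their range. The log2 fold changes were -0.06 ± 0.14 (95% interval -0.36 to 0.24, adjusted p 0.97), -0.12 (-0.42 to 0.19, adjusted p 0.68) and 0.25 (-0.05 to 0.56, adjusted p 0.33) at days 0, 2 and 3.

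Pom121 rose over the days in the knockout lines, by 0.44 ± 0.14 from day 0 to day 3 (adjusted p 0.018), where 50.6% of all genes were called. The call was lost without line 14 (0.36, adjusted p 0.065), HM1 replicate 1 (adjusted p 0.055) or HM1 replicate 2 (adjusted p 0.051). In the controls the change over the same days was 0.13 (adjusted p 0.47). The difference between those changes, 0.31, was not called (adjusted p 0.66).

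Ndc1, the multi-pass protein, was at 104, 104 and 119 CPM in the day 0 controls and 102, 112 and 125 CPM in lines 14, 19 and 319. At day 2 the controls held 85.2, 89.9 and 102 CPM and the knockout lines 88.6, 71.5 and 154 CPM, the widest spread of any group for this gene. At day 3 the values were 79.0, 76.4 and 72.7 CPM against 86.3, 110 and 92.0 CPM. The lowest day 3 knockout sample was 1.09 times the highest control. How many of all genes show such a gap was not measured, and the day 3 difference was not called. The log2 fold changes were 0.05 ± 0.19 (95% interval -0.34 to 0.45, adjusted p 0.98), 0.15 (-0.25 to 0.56, adjusted p 0.68) and 0.34 (-0.06 to 0.74, adjusted p 0.32). Line 19 at day 2 was the lowest sample in its group, and without it the middle value was 0.34 (adjusted p 0.29).

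Ndc1 fell in the controls by 0.51 ± 0.19 from day 0 to day 3 (interval of the change -0.91 to -0.11, adjusted p 0.034), in 3 of 3 series. Without HM1 replicate 1, HM1 replicate 2, line 1A4 or line 14 the call was lost (-0.57, -0.54, -0.42 and -0.51, adjusted p 0.12, 0.13, 0.19 and 0.057). The knockout change over these days was -0.23 (adjusted p 0.34), and the difference of the changes was 0.28 (adjusted p 0.8). The share of all genes called was 35.2% from day 0 to day 2 and 21.4% from day 2 to day 3 in the controls and 35.9% from day 0 to day 2 in the knockout lines. In those steps none of Nup210, Pom121 and Ndc1 was called by edgeR or DESeq2; at an unadjusted p below 0.05 the counts were 0, 1 and 0 of 3.

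**Figure D2:**
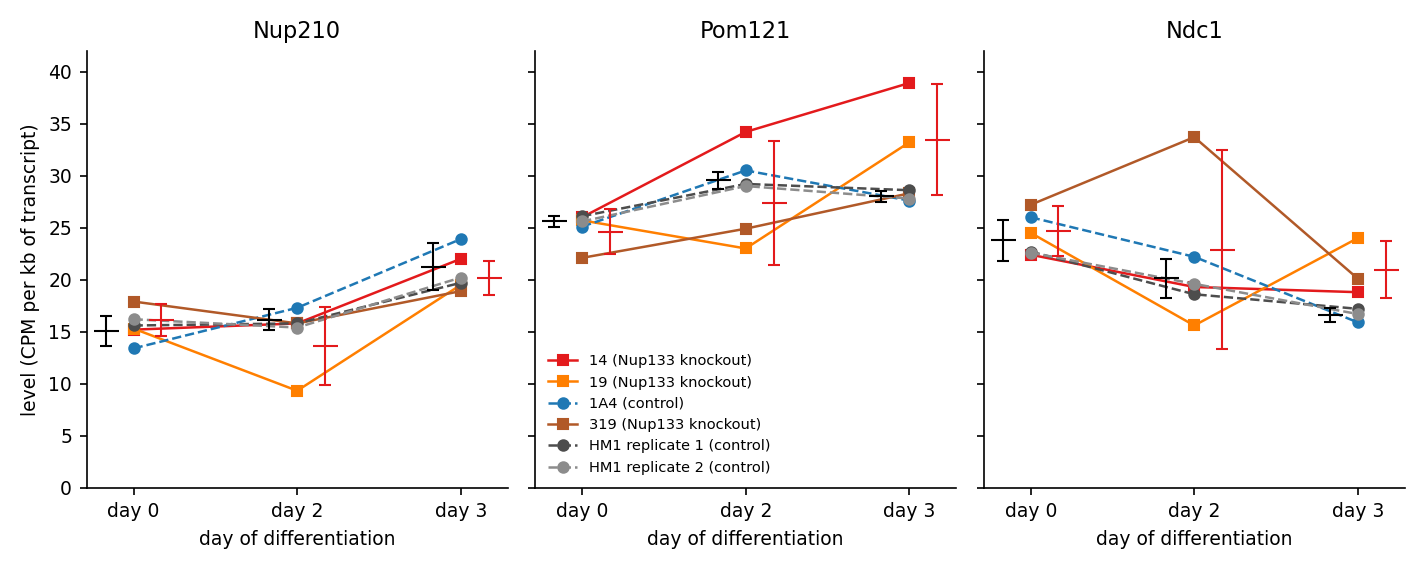
Level of Nup210, Pom121 and Ndc1 in CPM per kb of transcript (linear axis from 0) in each sample at days 0, 2 and 3, with group means and SD (n = 3) as bars, black for controls and red for knockout samples. Line 19 at day 2 is the lowest point of the Nup210 panel. The day 3 knockout points of Ndc1 lie above the day 3 controls, a difference that was not called.

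How the genotype difference changed with the day was tested for Nup210, Pom121 and Ndc1 and described for Nup210l. For Nup210l the change was 1.98 ± 0.42 from day 0 to day 2, 3.07 ± 0.43 from day 0 to day 3 and 1.08 ± 0.42 from day 2 to day 3. For the other 3 genes the same changes lay between -0.34 (Nup210, day 2 minus day 0, adjusted p 0.79) and 0.37 (Pom121, day 3 minus day 2, adjusted p 0.58). None of the 3 was called in any of these comparisons by edgeR or DESeq2, and at an unadjusted p below 0.05 the count was 0. Over all genes 0.0219% were called for day 2 minus day 0, 0.427% for day 3 minus day 0 and 0.0383% for day 3 minus day 2.

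**Figure D3:**
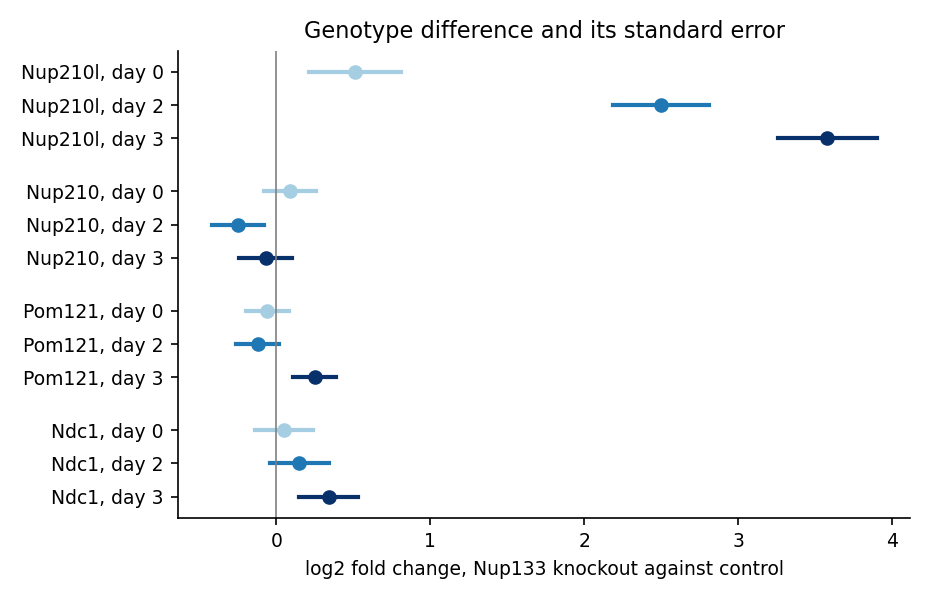
Log2 fold change of the knockout against the control for each of the 4 genes at days 0, 2 and 3, with the standard error of the fit as bars. Nup210l is at 0.51, 2.50 and 3.58, and the 9 values of the other 3 genes lie between -0.25 and 0.34.

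Per line, the other 3 genes showed no common direction at days 0 and 2. For Nup210 the differences from the own-background controls were -0.07, -0.06 and 0.42 at day 0 in lines 14, 19 and 319, 0.01, -0.74 and -0.13 at day 2, and 0.14, -0.03 and -0.34 at day 3. For Pom121 they were 0.01, -0.01 and -0.18, then 0.23, -0.34 and -0.29, and at day 3 0.46, 0.23 and 0.04. For Ndc1 they were -0.02, 0.12 and 0.06, then 0.02, -0.29 and 0.60, and at day 3 0.15, 0.50 and 0.34. At day 3 the 3 lines were thus on the same side for Pom121 and Ndc1, though line 319 was at only 0.04 for Pom121. How many of all genes have the 3 lines on the same side was not measured, and neither difference was called. Across the 18 samples the Pearson r of log2 CPM was -0.07 between Nup210l and Nup210 and 0.51 between Nup210 and Pom121, over samples that share lines and days.

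Line 19 at day 2 also differed in how its counts were spread over the transcripts of a gene. Of the 8 other Nup210 transcripts in the files, 6 held a smaller percentage of the representative transcript's counts in that sample than in any of the 17 others, and 2 a larger one. The transcript ENSMUST00000123340, at the 3′ end of the gene, held 20.7% there and 9.56% to 12.2% in the other 17 samples. Of the 5 other Ndc1 transcripts, 4 were below the range of the others, among them ENSMUST00000132950 with 10.3% against 17.2% to 21.4%. This was the shallowest sample, and its part in the day 2 values was measured by leaving it out, as given beside them.

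The other nucleoporins were read from a list of 27 genes outside the transmembrane group, of which 26 were matched and tested and Nup58 was not analysed here. Between the genotypes edgeR called 0 at day 0, 0 at day 2 and 1 at day 3, where 0.854%, 1.6% and 5.19% of all genes were called. At an unadjusted p below 0.05 the counts were 1, 3 and 6, and DESeq2 called 0, 1 and 4. The median log2 fold changes were 0.02, -0.11 and 0.06, beside 0.01, 0.02 and 0.02 for all genes tested. At day 3 the highest was Tpr, the main protein of the nuclear basket, at 0.52 (adjusted p 0.076).

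The called gene was Nup88, which binds Nup214 at the cytoplasmic face. At day 3 it was lower in the knockout, at 153 ± 17.1 against 216 ± 14.9 CPM (SD, n = 3 each; log2 fold change -0.50 ± 0.12, adjusted p 0.025). At days 0 and 2 its fold changes were -0.27 (adjusted p 0.41) and -0.36 (adjusted p 0.11). The day 3 count was 0 without HM1 replicate 1, HM1 replicate 2, line 1A4 or line 14, 4 without line 19 and 3 without line 319.

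Without line 19 at day 2 the count was 1 at day 2 (Nup85 of the Y-complex, -0.49, adjusted p 0.0093) and 7 at day 3. The 7 were Ranbp2 (0.50), Tpr (0.51), Nup50 (0.26), Gle1 (0.36) and Sec13 (0.36), which were higher, and Nup85 (-0.27) and Nup88 (-0.51), which were lower. In that setting 2.08% and 15.8% of all genes were called at days 2 and 3. No change of the genotype difference between days was called for the list by edgeR or DESeq2, and at an unadjusted p below 0.05 there were 0 (day 2 minus day 0), 1 (day 3 minus day 0) and 0 (day 3 minus day 2).

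Over differentiation most of the 26 fell. From day 0 to day 3 in the controls, 24 had a value below 0, and 21 were called lower and 0 higher. The median was -0.71 beside 0.04 for all genes, of which 23.3% were called lower. Tpr fell by 1.09 on the log2 scale (adjusted p 6.5e-05) and Gle1, an mRNA export factor, by 0.80 (adjusted p 2.3e-05), while Nup205 and Nup188 of the inner ring were at 0.03 and 0.09 (adjusted p 0.92 and 0.7). In the knockout lines 26 of 26 were below 0, and 17 were called lower and 0 higher. The median was -0.62 beside 0.01 for all genes, of which 22.2% were called lower. Nup43 of the Y-complex fell by 0.99 there. From day 0 to day 2, 24 of the 26 were below 0 in the controls and 25 in the knockout lines. Of these, 5 and 10 were called lower, where 15.5% and 15.1% of all genes were. From day 2 to day 3, 26 and 21 were below 0. Of these, 7 and 6 were called lower, where 8.92% and 16.0% of all genes were.

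The second list held 18 proteins of the nuclear membrane and endoplasmic reticulum that work with the pore's membrane side, among them torsins, SUN proteins and reticulons. Between the genotypes edgeR called 0 at each day; at an unadjusted p below 0.05 there were 1, 5 and 5, and DESeq2 called 0, 1 and 1. The medians were -0.02, -0.07 and 0.02, and 0.854%, 1.6% and 5.19% of all genes were called at these days. At day 3 the lowest was Rtn4, a reticulon that shapes membrane tubules, at -0.49 (adjusted p 0.063), and the highest was Tmem33, a membrane protein of the endoplasmic reticulum, at 0.69 (adjusted p 0.11). The extremes at day 0 were Rtn4 (-0.32) and Chmp7 (0.35), an ESCRT protein that acts in sealing the nuclear envelope, and at day 2 Atl3 (-0.47) and Chmp7 (0.56).

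Without line 19 at day 2, 5 of these 18 were called at day 3, where 15.8% of all genes were called in that setting. They were Tmem33 (0.67) and Tor1b (0.32), higher, and Rtn4 (-0.50), Sun1 (-0.39) and Lemd2 (-0.43), lower. Over days 0 to 3 edgeR called 2 higher in the controls, Lemd2 (0.96) and Rtn3 (0.93). It called 3 lower, Tor1aip2, Sun1 and Tor1aip1 (-0.79, -0.52 and -0.35). In the knockout lines it called 1 higher and 2 lower. These 5 and 3 calls of 18 stand beside 51.0% and 50.6% of all genes called in the same comparisons.

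**Figure D4:**
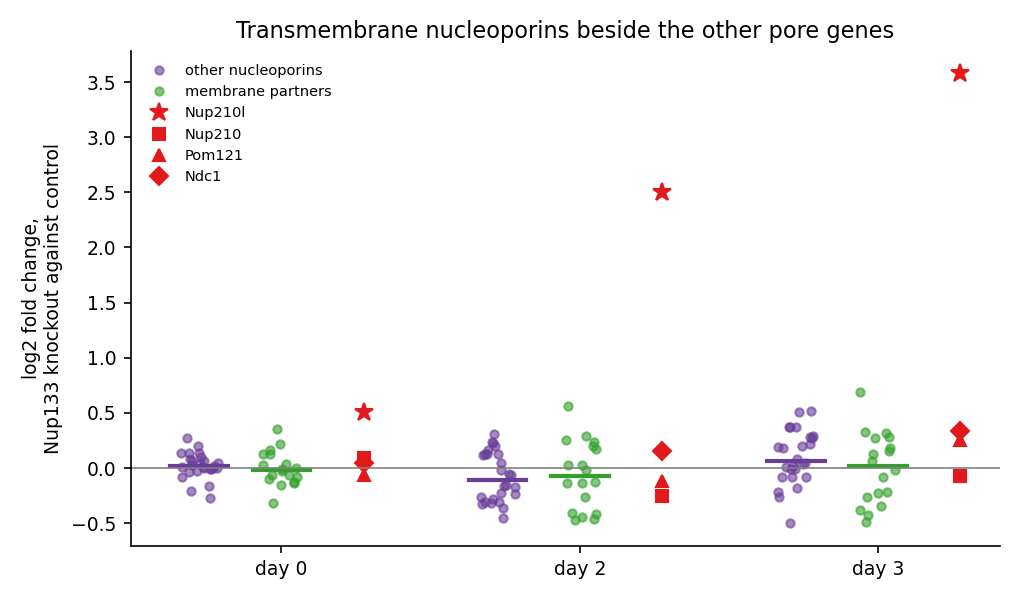
Log2 fold change of the knockout against the control at days 0, 2 and 3 for the 26 other nucleoporins and 18 membrane partners (small circles, with a bar at the median of each list) and for the 4 transmembrane genes (large symbols). The circles lie between -0.50 and 0.69 over the 3 days, and Nup210l is at 2.50 and 3.58 at days 2 and 3.

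Paralogs of Pom121 gave no signal to describe. Pom121l2 held 0 to 10 counts per sample, 52 in all, and was not tested. Pom121l12 held 0 counts in each sample.

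Since Nup210l is known from germ cells, 14 germ cell markers were read beside it, of which 13 were tested. Their summed level was 111 to 232, 191 to 286 and 91.2 to 153 CPM in controls at days 0, 2 and 3 and 211 to 286, 248 to 386 and 135 to 238 CPM in knockout samples. At days 0 and 2 edgeR called 0 between the genotypes (4 and 4 at an unadjusted p below 0.05, and 1 and 2 by DESeq2). At day 3 it called Taf7l, a testis transcription factor subunit on the X chromosome, higher (1.87, adjusted p 0.026) and Ldhc, the testis lactate dehydrogenase, lower (-2.00, adjusted p 0.014). Taf7l was at 1.4 to 2.13 CPM in the day 3 controls and spread from 3.19 to 19.9 CPM in the day 3 knockout samples. For Ldhc these ranges were 1.35 to 3.17 and 0.388 to 0.711 CPM. The medians of the list were 0.42, 0.42 and 0.49, beside 0.01, 0.02 and 0.02 for all genes, of which 0.854%, 1.6% and 5.19% were called. Of the 13 tested, 9, 11 and 10 were higher in the knockout at days 0, 2 and 3. Asz1, not tested, reached no more than 11 counts in a sample. In both groups the sum was lower at day 3 than at day 2. The part of germ cells in the Nup210l difference was not tested.

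The summed level of 10 fibroblast markers, read for leftover feeders, was 113 to 209, 121 to 177 and 187 to 277 CPM in controls and 82 to 141, 78.5 to 103 and 122 to 192 CPM in knockout samples. Postn, a matrix protein, was lower in the knockout at days 2 and 3 (-5.31 and -3.40, adjusted p 0.004 and 0.0054), as was smooth muscle actin, Acta2 (-3.16 and -3.45, adjusted p 0.0054 and 0.0017). They were the 2 called of 9 tested at each of these days, where the medians were -0.41 and -0.40. Of all genes, 0.854%, 1.6% and 5.19% were called at days 0, 2 and 3. Of the 9, 4 had a value above 0 at day 2 and 3 at day 3, the highest being Twist2 (0.73, adjusted p 0.45) and Col3a1 (1.09, adjusted p 0.082). At day 0 edgeR called 0 (3 at an unadjusted p below 0.05, 1 by DESeq2), and Lum reached no more than 8 counts in a sample. Of the 6 neural markers edgeR called 0, 1 and 2 at days 0, 2 and 3, with medians of 0.34, -0.19 and 1.43 (2, 2 and 3 at an unadjusted p below 0.05, and 1, 2 and 2 by DESeq2). Zic1 was higher at day 2 (2.16, adjusted p 0.039) and at day 3 (2.94, adjusted p 0.003), and Pax6 at day 3 (2.25, adjusted p 0.012). The day 3 ranges of Pax6 overlapped, at 23.5 to 42.6 CPM in controls and 36.4 to 322 CPM in knockout samples. The lowest were Nes at day 2 (-1.11, adjusted p 0.098) and Hes5 at day 3 (-0.90, adjusted p 0.37). Of the 6 pluripotency markers 0 were called by edgeR or DESeq2 at any day (0, 1 and 2 at an unadjusted p below 0.05 at days 0, 2 and 3). The part of these cell types in the Nup210l difference was not tested.

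Genes near Nup210l were read to see whether the surrounding region moved with it. Within 500 kb of the gene lie 61 genes, of which 37 were tested. At day 0 edgeR called 0 (1 at an unadjusted p below 0.05, 0 by DESeq2). At day 2 it called 3 higher (9 at an unadjusted p below 0.05, 6 by DESeq2). At day 3 it called 1 higher (5 at an unadjusted p below 0.05, 4 by DESeq2). Of all genes, 0.854%, 1.6% and 5.19% were called at days 0, 2 and 3. The median log2 fold changes were -0.04, 0.29 and 0.05. The nearest genes on the 2 sides, Rps27 for a ribosomal protein (0.474 kb away) and Tpm3 for a tropomyosin (3.23 kb away), were at 0.88 (adjusted p 0.17) and 0.20 at day 2 and at 0.05 and 0.00 at day 3.

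The called neighbours lay on the side of higher coordinates, as Rps27 does, but 325 to 392 kb from Nup210l. They were the calcium-binding protein genes S100a4 (2.02, adjusted p 0.039) and S100a16 (1.16, adjusted p 0.042) and Gm42674 (1.96, adjusted p 0.044) at day 2, and S100a4 (1.89, adjusted p 0.039) at day 3. Gm42674 (90601904 to 90605885) and S100a4 (90603771 to 90606045) overlap on the + strand, so their counts can share reads. Without line 19 at day 2, 0 of 39 tested were called at day 2, where S100a4 was at 1.42 (adjusted p 0.091), Gm42674 at 1.36 (adjusted p 0.11), S100a16 at 1.11 (adjusted p 0.065) and Rps27 at 0.09. At day 3 there were then 4, S100a4 (1.86), Gm42674 (1.67) and Chtop (0.35) higher and Dennd4b (-0.72) lower. Of all genes, 2.08% and 15.8% were called at days 2 and 3 in this setting. Around Nup210, 12 of 19 genes within 500 kb were tested and edgeR called 0 at each day (1, 3 and 2 at an unadjusted p below 0.05, and 0, 0 and 1 by DESeq2).

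**Figure D5:**
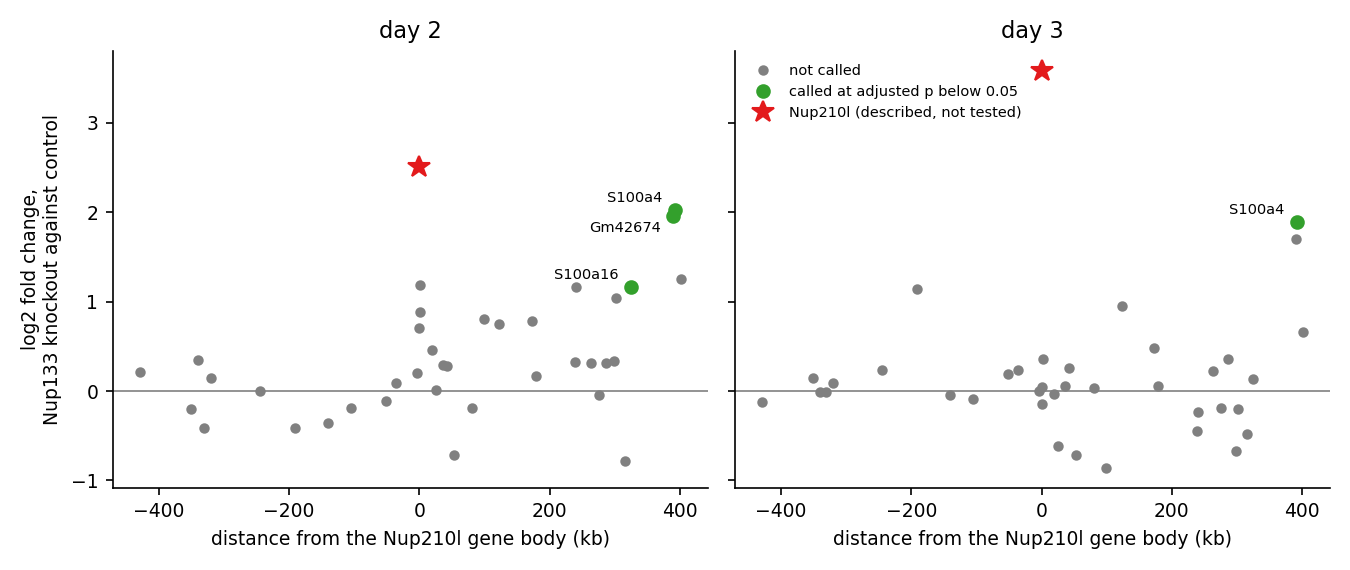
Log2 fold change of the knockout against the control at days 2 and 3 for the 37 tested genes within 500 kb of Nup210l, against their distance from its gene body in kb (negative towards the start of the chromosome), with called genes in green and Nup210l as a star. The nearest genes, Rps27 and Tpm3, lie at 0.05 and 0.00 at day 3, and S100a4, at 2.02 and 1.89, is the highest neighbour on both days.

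The genes most like Nup210l were sought by the Pearson r of log2 CPM over the 18 samples among 12285 genes. The highest were Hhipl2 (r = 0.946), Rabl2 (0.858), Vwce (0.843), Il17f (0.835) and Xkr6 (0.829). Hhipl2 was at 0.207, 0.0584 and 0.13 CPM in controls at days 0, 2 and 3 and at 0.29, 1.11 and 1.51 CPM in knockout samples. Nup210l was picked for being higher in the knockout at days 2 and 3, so genes chosen for likeness to it tend to share that pattern by selection. The means of Hhipl2, Vwce and Il17f reached 1 CPM, the cut for this search, only in knockout groups. Rabl2, a small GTPase of cilia and flagella, was at 8.39, 6.44 and 7.16 against 11.2, 11.4 and 12.9 CPM. Il17f, a cytokine gene, was at 0.25 ± 0.0467 CPM in the day 3 controls and 1.01 ± 0.281 CPM in the day 3 knockout samples (SD, n = 3).

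With the mean of each day subtracted the highest were Usp4 (0.957), Atp9b (0.956), Hhipl2 (0.946), Gon4l (0.943) and Eif2ak1 (0.937). At day 3 their log2 fold changes between the genotypes were 0.32, 0.54, 3.49, 0.36 and 0.53 in the same order. By Spearman's rho over the 18 samples the highest were Hhipl2 (0.909), Rabl2 (0.886), Tcte3 (0.88), Mettl6 (0.851) and Vps18 (0.849), so Hhipl2 was among the 5 by each of the 3 measures. Tcte3, a testis-expressed dynein light chain gene, was at 0.11 and 0.0467 CPM in controls and 1.11 and 0.578 CPM in knockout samples at days 2 and 3. Its mean reached the cut of 1 CPM only in the knockout samples of day 2. The 3 measures rest on the same 18 samples, so their agreement is not independent, and the values share lines, days and libraries.

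For the other members the most alike genes were different ones. For Nup210 they were Gfpt1 (r = 0.938), the first enzyme of hexosamine synthesis, Tln1 (0.937), the integrin-binding protein talin, and Dennd5a (0.927). For Pom121 they were Ipo9 (0.859), an importin, Zbtb39 (0.852) and Glcci1 (0.846). For Ndc1 they were Upf2 (0.925), a factor of nonsense-mediated decay, Ttc30a1 (0.915) and Zfp65 (0.915). Hhipl2 and the other genes listed for Nup210l are in none of these lists.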

How the data were processed

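Poly(A) RNA was sequenced from 18 biological samples with 4 technical files each, 72 in all. Per the submitters' processing notes, bcl2fastq 2.17.1.14, STAR 2.4.0k, SAMtools, HTSeq and the build mm10 were used; their roles, the annotation and the use of strand are not given in the sources used here. The authors deposited unnormalized counts, 1 value per Ensembl transcript.

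The 4 technical files of a sample were added up, since they differed by no more than counting error (chi-square per degree of freedom 1.01 to 1.03). Identifiers were matched to GENCODE M21 on GRCm38, 108214 of 110379, and unmatched ones held 1.44% to 2.46% of the counts of a sample. A read counts for every transcript it overlaps, so 1 transcript, the one with the highest total, stood for a gene. Gene counts were 16.5 M to 54.4 M per sample, and a low gene such as Nup210l is limited by its counts.

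The test was edgeR's (edgeR 4.0.16 with limma 3.58.1, in R 4.3.3): TMM scaling, filterByExpr, a quasi-likelihood fit of 6 groups and a term for background (HM1-derived or blastocyst-derived) over all 18 samples, 11 residual degrees of freedom and a common biological coefficient of variation of 0.246. The fit was tested on simulated data. Alternatives were DESeq2 1.42.0, other scalings, no filter, other transcript choices, no background term, fewer samples and a replicate block. The line pairs samples across days, since each was followed through the 3 days, and 16 of 18 same-series pairs of days deviated together (r above 0.1; range -0.09 to 0.40). A setting with all lines without line 19 at day 2 was listed because that sample stood apart in earlier results.

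The members and lists were chosen with earlier results of these data known. A test planned for the control course of Nup210l is not given, since the choice used the control levels too. Named from each list were the genes called between the genotypes at any day, otherwise the lowest and highest; from the neighbours, those called and the nearest on each side; and the 5 genes (Nup210l) or 3 genes (others) with the highest r, with at least 1 CPM in the highest group. Genes named for a change between days, or beside another setting, were chosen after their values were seen.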

Additional observations from a re-analysis of the deposited data

Results flagged for a closer look

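For Nup210l, the 3 control series and the 3 knockout lines moved in opposite directions between days. From day 0 to day 2 the mean difference of log2(CPM + 0.5) was 1.19 in the knockout lines and -0.41 in the controls, and from day 0 to day 3 it was 1.98 and -0.53. Both differences were not tested, because Nup210l was picked for its genotype difference.

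Nup210 at day 0 was 0.42 above its own-background control in line 319, while lines 14 and 19 lay slightly below theirs (-0.07 and -0.06). With 1 sample of line 319 this difference was not tested.

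Pom121 moved in opposite directions from day 2 to day 3, by 0.30 in the knockout lines and -0.08 in the controls on average. The fitted difference of the changes was 0.37, and edgeR's quasi-likelihood test did not call it (adjusted p 0.58).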

How the results depend on the processing

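The genotype difference of Nup210l was 0.14 to 0.68 at day 0, 2.33 to 2.60 at day 2 and 3.42 to 3.81 at day 3 over all settings run. The steps of the other 3 genes were small. Over the alternatives, 186 results for Nup210, 192 for Pom121 and 185 for Ndc1 kept their sign and call. The sign was reversed in 9, 8 and 13, and a call was lost in 7, 5 and 9. A call was gained in 5 for Nup210 and 2 for Pom121. In the HM1-derived lines alone, the knockout difference of Nup210 was -0.05 at day 0 and 0.05 at day 3, that of Pom121 at day 0 was 0.01 and that of Ndc1 at day 2 was -0.13. There, the Nup210 change in controls was -0.01 from day 0 to day 2 and 0.35 (call lost) from day 0 to day 3, and its genotype change from day 0 to day 3 was 0.10. The knockout change from day 0 to day 3 was 2.76 for Nup210l and 0.49 for Pom121 (call lost). Ndc1 was at -0.39 in controls from day 0 to day 3 (call lost), at 0.29 in knockout lines from day 2 to day 3, and its genotype change from day 0 to day 2 was -0.19. Without the filter the calls of Ndc1 (-0.49) in controls and of Pom121 (0.46) in knockout lines from day 0 to day 3 were lost, and the control change of Nup210l was -0.81. Ndc1 in controls was also lost without the background term (-0.52). With upper quartile scaling the control change of Nup210l was -0.75, that of Ndc1 (-0.43) lost its call, and the knockout change of Nup210 (0.41) was called.

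Unscaled totals moved the median of all genes at day 2 to -0.11. With them the control changes from day 0 to day 3 were -0.51 for Nup210l, -0.18 for Ndc1 (call lost) and 0.45 for Pom121 (called), and Pom121 from day 2 to day 3 was 0.06. In knockout lines they gave 0.63 for Nup210 from day 0 to day 3 and 0.50 for Pom121 from day 2 to day 3 (both called), and Ndc1 at 0.13 from day 2 to day 3 and 0.08 from day 0 to day 3. Without line 19 at day 2, Nup210 in controls from day 2 to day 3 (0.39) and in knockout lines from day 0 to day 3 (0.32) was called. The Pom121 difference at day 2 was 0.01, and its change from day 0 to day 2 was 0.07. Ndc1 in knockout lines from day 0 to day 2 was 0.06, and the genotype changes from day 2 to day 3 were -0.04 for Nup210 and -0.02 for Ndc1. With the replicate block the control change of Nup210l from day 0 to day 3 was -0.81, and no call of Nup210, Pom121 or Ndc1 changed. The cause of these shifts was not tested.

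Leaving out 1 replicate at a time gave these ranges. Nup210l: in controls -0.99 to -0.56 from day 0 to day 3 and -0.43 to 0.00 from day 2 to day 3, and in knockout lines 1.92 to 2.76 from day 0 to day 3. Nup210: day 0 difference -0.03 to 0.16, in controls -0.03 to 0.18 (day 0 to 2), 0.35 to 0.43 (day 2 to 3) and 0.32 to 0.57 (day 0 to 3), in knockout lines 0.37 to 0.73 (day 2 to 3), and genotype changes -0.26 to 0.00 (day 0 to 3) and -0.02 to 0.34 (day 2 to 3). Pom121: day 0 difference -0.09 to 0.02, day 2 difference -0.30 to 0.01, knockout change 0.36 to 0.49 (day 0 to 3), and genotype change -0.21 to 0.08 (day 0 to 2). Ndc1: day 0 difference -0.00 to 0.09, day 2 difference -0.17 to 0.33, in controls -0.57 to -0.42 (day 0 to 3), in knockout lines -0.42 to 0.09 (day 0 to 2) and -0.43 to 0.29 (day 2 to 3), and genotype changes -0.19 to 0.31 (day 0 to 2) and -0.15 to 0.57 (day 2 to 3).

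The count of other nucleoporins called at day 3, 1 in the reported fit, was 0 without the filter, without the background term and in the HM1-derived lines, 2 with a random replicate block and with summed transcripts, 4 with DESeq2 and with each day alone, 7 without line 19 at day 2 and 0 to 4 with a replicate left out. At day 2 it was 1 with DESeq2, with unscaled totals and without line 19 at day 2, and 0 to 1 with a replicate left out. Membrane partners called at day 3 were 1 with DESeq2 and with the random replicate block, 4 with each day alone, 5 without line 19 at day 2 and 0 to 2 with a replicate left out, and at day 2 1 with DESeq2. Within 1000 kb, the neighbours called at day 3 were 2 for Nup210l and 1 for Nup210, and within 500 kb but without line 19 at day 2 those of Nup210l were 0 at day 2 and 4 at day 3. Over all genes the reported fit called 156, 292 and 948 at days 0, 2 and 3, DESeq2 560, 1406 and 2063, each day alone 244, 0 and 2546, no background term 119, 185 and 516, the HM1-derived lines 313, 245 and 1121, and the fit without line 19 at day 2 378, 394 and 2994. The depth of 17 to 60 counts for Nup210l per control sample limits its control steps, and 1 sample per knockout line and day limits what is said of a line.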
